A study of Rattus norvegicus with 9 samples.

Results

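Adrenaline acts on cells through adrenergic receptors, and the 8 genes described here follow that signal from the receptor to the response. The list holds Adra1a, Adra1b, Adra2a and Adrb1, which encode receptors, Maoa, which encodes an enzyme that breaks catecholamines down, and Crem, Pde4b and Pde4d, which are targets and brakes of the second messenger cAMP. Each was found by its symbol among 22250 gene rows of an RNA sequencing table of rat endometrium, and 7 of the 8 had enough reads to be tested. Adra1b, with 2 to 14 reads per library, did not. The members stand for the pathway of adrenaline, one of the drugs injected.

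There were 3 groups of 3 libraries from female Sprague-Dawley rats aged 10 weeks. NER rats were given saline in place of both drugs, and olive oil once they had mated. LER rats took hydroxyurea, an inhibitor of ribonucleotide reductase, by mouth at 450 mg/kg per day over 10 days, with adrenaline injected subcutaneously at 0.3 mg/kg per day on days 4 to 10, and then olive oil. LER+LIG rats had both drugs and afterwards LIG (named ligustilide in the title, a phthalide of Angelica and Ligusticum roots) at 40 mg/kg per day by mouth from gestation day 0.5. Hydroxyurea and adrenaline were always given together, so the effect of adrenaline alone cannot be told apart from that of hydroxyurea. Adrenaline had ended before mating in every treated rat, and the labels give no day of tissue collection. The labels do not say whether each library is a separate animal, so each p-value reflects only how far these libraries vary, which may be technical.

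As background, alpha-1 receptors signal through Gq and calcium and contract smooth muscle, alpha-2 receptors lower cAMP through Gi, and beta receptors raise cAMP through Gs. cAMP activates protein kinase A, which phosphorylates CREB and CREM, transcription factors that bind the cAMP response element. Phosphodiesterases of the PDE4 family hydrolyse cAMP, and some of their promoters, like an internal promoter of Crem that makes the repressor ICER, respond to cAMP and so close a feedback loop. In the uterus the same messenger drives relaxation of muscle and the decidual change of stromal cells.

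The cAMP response element was searched in the promoters of the members because it is the sequence through which such feedback works. RefSeq promoters on build GRCr8, 300 bases long, were at hand for 7 of the 8 members, with 14 start sites in all. The full 8-base element, TGACGTCA, which reads the same on both strands, occurred at 2 of the 14, both of Crem, and in 1.83% of all 33469 rat promoters of that length. The 2 Crem promoters are shown on the plus strand, with the full element in capitals.

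Crem start site 2, chr17:58984547-58984846: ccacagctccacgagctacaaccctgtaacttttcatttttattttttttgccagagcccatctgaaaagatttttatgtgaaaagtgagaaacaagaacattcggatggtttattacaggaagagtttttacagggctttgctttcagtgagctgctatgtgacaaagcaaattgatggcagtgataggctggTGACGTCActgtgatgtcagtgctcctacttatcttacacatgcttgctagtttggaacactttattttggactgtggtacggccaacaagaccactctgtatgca

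Crem start site 3, chr17:58985240-58985539: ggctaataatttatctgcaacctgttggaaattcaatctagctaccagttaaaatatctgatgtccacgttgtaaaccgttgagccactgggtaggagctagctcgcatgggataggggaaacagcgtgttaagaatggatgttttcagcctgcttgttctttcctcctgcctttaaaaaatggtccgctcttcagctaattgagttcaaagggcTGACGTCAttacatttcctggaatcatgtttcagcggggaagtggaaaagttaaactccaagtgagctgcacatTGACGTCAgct

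In the promoter of start site 2 the element began 56 bases before the start. At start site 3 it occurred at 2 places, from 35 bases before and from 39 bases after the start. The 5-base core TGACG, searched on both strands and contained in the full element, occurred at 7 of the 14 member start sites and in 21.2% of all promoters. Those with the core alone were one start site each of Adrb1 and Maoa, the other Crem start site and a pair of Pde4d start sites, while Adra1b, Adra2a and Pde4b had none in these windows. TGTTCT, a core of glucocorticoid and progesterone receptor elements, occurred at 4 of the 14 (Crem and Pde4d) and in 20.7% of all promoters. These matches describe letters and do not show binding, and counts per gene do not tell which Crem start site was used.

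Libraries held 13241537 to 15354085 counts. Defining markers of endometrial stroma (9 of 9), epithelium (8 of 8) and smooth muscle (9 of 9) all had reads, and the summed smooth muscle markers were at 11083 to 23358 CPM (counts scaled to a common library size, with TMM factors), so smooth muscle marker RNA was in every library labelled endometrial. The first principal component, with 44.4% of the variance, placed 3 libraries at 71.3 to 84.5, namely NER replicate 3 with LER+LIG replicates 2 and 3, while the rest lay at -68.1 to -28.7. C3, a complement gene that oestrogen induces in rodent uterus, is 1 of 8 listed hormone-response genes. The list was mixed: of its 7 tested genes, 5 were higher and 2 lower for LER+LIG against LER. For LER against NER 2 were higher and 5 lower. C3 was at 4346, 13045 and 2173 CPM in those 3 libraries and at 8.63 to 25.4 CPM in the other 6. In the same order the epithelium sums were 2574, 1893 and 1409 CPM, against 614.6 to 1227 CPM. Macrophage marker sums were 1122, 856.9 and 855.7 CPM, against 340.1 to 560.8 CPM. Stroma sums were 26374, 7114 and 26549 CPM, against 19382 to 29398 CPM. Of the 8 epithelium markers, 4 were higher and 4 lower for LER against NER (log2 fold changes of -3.29 to 0.89). The same split, 4 higher and 4 lower, held for LER+LIG against LER (-1.31 to 2.48). The epithelium sums therefore do not stand for every listed marker. Whether tissue composition or hormone state sets these 3 libraries apart was not tested. LER+LIG replicate 1 differed in another way. Relative to the LER mean its median gene was at 0.43 (log2) in the shortest of 4 equal length classes, up to 1647 bases, and at -0.38 in the longest, from 4575 bases. In each of the other 8 libraries both classes lay between -0.13 and 0.15.

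Among the members, transcript abundance per length ran from the breakdown enzyme down to the least expressed receptor. By the authors' FPKM (counts per length and library total), averaged over the 9 libraries, Maoa was highest at 35.4 ± 5.1 (SD, n = 9). Adra2a followed at 9.46 ± 5.15, Crem at 5.18 ± 2.42, Adra1a at 3.19 ± 1.41, Pde4d at 3.04 ± 1.301, Pde4b at 1.802 ± 0.69, Adrb1 at 1.62 ± 0.89 and Adra1b at 0.20 ± 0.12 FPKM. Maoa was above Adra2a, and Adrb1 above Adra1b, in 9 of 9 libraries. Adra2a was above Crem in 8 of 9, Crem above Adra1a in 7 of 9 and Pde4d above Pde4b in 7 of 9. Adra1a and Pde4d changed places, with Adra1a higher in 5 of 9, and so did Pde4b and Adrb1, also 5 of 9, so neither pair differed beyond its spread. Gene lengths behind the FPKM were 1401 bases for Adrb1 to 11839 for Crem, and a long gene model that joins many isoforms lowers the FPKM.

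**Figure D1:**
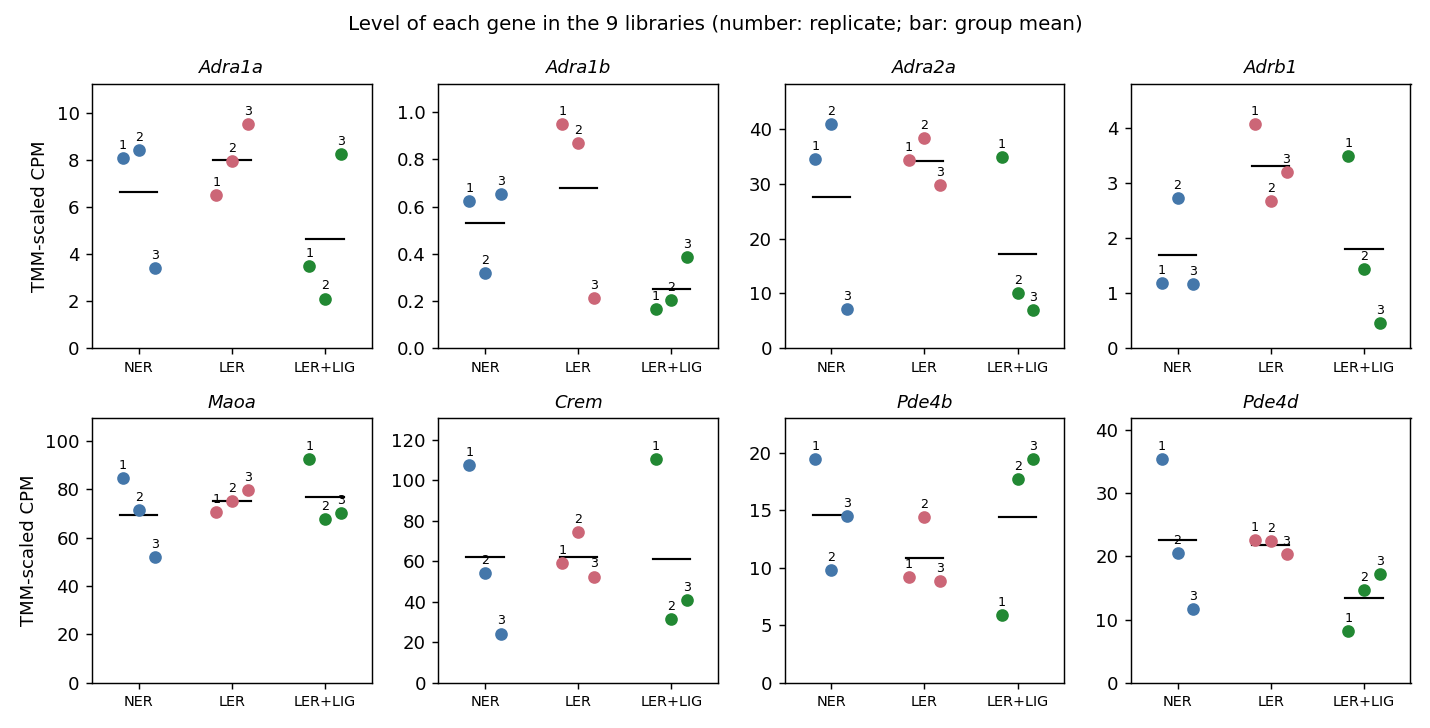
Level of each member in the 9 libraries, as TMM-scaled CPM on linear axes from 0. Points are libraries numbered by replicate and bars are group means. NER replicate 3 and LER+LIG replicates 2 and 3 have the 3 lowest Adra2a levels, at 6.88 to 10.0 CPM, and the 3 lowest Crem levels.

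No member was called in any of the 3 comparisons. Of the 7 tested members, the edgeR quasi-likelihood test (Benjamini-Hochberg adjusted) called 0 in LER against NER, 0 in LER+LIG against LER and 0 in LER+LIG against NER, beside 0% of 14229 genes in each. The DESeq2 Wald test also called 0 members in each, beside 0.0113%, 1.96% and 0.0981% of the genes to which it gave an adjusted p. At an unadjusted p under 0.05 there were 0 members in each comparison by edgeR, where all genes gave 0.871%, 12.5% and 5.44%. Fitted log2 fold changes were below 0 for 2 of 7 members in LER against NER (52.9% of all tested genes), for 5 of 7 in LER+LIG against LER (45.1%) and for 5 of 7 in LER+LIG against NER (46.3%). The groups did not overlap for 0, 1 and 0 of the 7, where 7.14%, 20.4% and 8.29% of tested genes had groups apart. The authors' deposited table called 0 members in LER against NER and 0 in LER+LIG against LER, where it called 1.69% and 7.96% of its rows, and gave an unadjusted p under 0.05 to 0 and 1 of them, beside 2.94% and 14.9%. The last of the 3 comparisons shares its libraries with the other two.

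Adra2a, the alpha-2A receptor that lowers cAMP and on nerve endings restrains noradrenaline release, had the largest SD of log2 CPM over the 9 libraries among the members, at 1.09. Its NER libraries were at 34.5, 40.9 and 7.16 CPM, its LER libraries at 34.3, 38.3 and 29.9 CPM, and its LER+LIG libraries at 34.9, 10.0 and 6.88 CPM. NER replicate 3 and LER+LIG replicates 2 and 3 were thus low, the other 6 libraries lay between 29.9 and 40.9 CPM, and the groups overlapped. In the fit the log2 fold change was 0.31 ± 0.69 (SE) for LER against NER and -0.99 ± 0.70 in LER+LIG against LER (edgeR, adjusted p = 1.00 and 0.57). Without NER replicate 3 the former turned to -0.14. Without LER+LIG replicate 1 the latter was -2.05, still not called at adjusted p = 0.16, and without the 3 libraries that stood apart it was -0.0023. These 3 low libraries are the ones with high C3 and with the highest epithelium and macrophage marker sums. The part of those differences in the Adra2a levels was not tested. In bulk tissue, fewer cells of a type and less RNA per cell cannot be told apart.

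Adra1a, the alpha-1A receptor of smooth muscle contraction, stood at 8.08, 8.42 and 3.40 CPM in NER, at 6.51, 7.96 and 9.53 CPM in LER and at 3.49, 2.11 and 8.27 CPM in LER+LIG. Its low libraries were NER replicate 3 and LER+LIG replicates 1 and 2, so it did not follow Adra2a. Its log2 fold change was 0.27 ± 0.55 (SE) for LER against NER and -0.79 ± 0.55 in LER+LIG against LER (edgeR, adjusted p = 1.00 and 0.57). Without NER replicate 3 the former was -0.044, and without LER+LIG replicate 3 the latter was -1.52. The summed smooth muscle markers were at 20541, 11083 and 12651 CPM in LER+LIG replicates 1 to 3, against 16899 to 22931 CPM in LER. Their part in the Adra1a values was not tested.

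Adrb1, the beta-1 receptor best known from heart muscle, was low throughout, with 6 to 60 reads per library. It measured 1.17, 2.72 and 1.16 CPM in NER, 4.07, 2.68 and 3.20 CPM in LER and 3.49, 1.43 and 0.46 CPM in LER+LIG. LER replicate 1 was the highest library, but LER replicate 2 lay just below NER replicate 2, so the groups overlapped. Of the members it had the largest fitted change for LER against NER, with a log2 fold change of 0.97 ± 0.70 (SE), which was not called (edgeR, adjusted p = 1.00). It ranged from 0.76 without NER replicate 3 to 1.502 without NER replicate 2. For LER+LIG against LER it was -0.89 ± 0.70 (SE; adjusted p = 0.61), and -1.82 without LER+LIG replicate 1. The level of LER+LIG replicate 1 was within the LER range, and without the 3 libraries that stood apart the change was 0.043. That fit has LER+LIG replicate 1 as its only LER+LIG library. The Adrb1 model of 1401 bases is in the shortest length class, whose median gene was at 0.43 (log2) in that library. The part of that shift in the Adrb1 value was not tested.

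Adra1b, the alpha-1B receptor known from vessels and liver, had 9, 5 and 9 reads in NER, 14, 13 and 3 in LER and 2, 3 and 5 in LER+LIG. In LER+LIG it was at 0.17, 0.20 and 0.39 CPM, of which replicates 1 and 2 lay just below the lowest other library, LER replicate 3 at 0.21 CPM, so the groups overlapped. With so few reads it was not tested.

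Among the other adrenergic receptor genes 3 could be tested, and edgeR called 0 of them in each comparison. Adra1d, the alpha-1D receptor of vessels, lay between 4.64 and 19.3 CPM, and Adra2b between 0.74 and 2.55 CPM. Adra2c had 0 to 1.16 CPM. Adrb3, the beta-3 receptor of adipocytes, was at 7.40 CPM in LER replicate 1 and 0.97 CPM in NER replicate 1, and had 0 reads in the other 7 libraries. LER replicate 1 also had the highest summed adipocyte markers, at 1577 CPM against 73.9 to 373 CPM in the others.

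Maoa, monoamine oxidase A, which deaminates adrenaline and noradrenaline inside cells, was the steadiest member. It measured 84.8, 71.3 and 52.2 CPM in NER, 70.5, 75.2 and 79.8 CPM in LER and 92.7, 67.9 and 70.1 CPM in LER+LIG. The group means of 69.5 ± 16.4, 75.2 ± 4.6 and 76.9 ± 13.7 CPM (SD, n = 3 each) overlapped within their spread. Its log2 fold change was 0.11 ± 0.23 (SE) for LER against NER and 0.033 ± 0.23 in LER+LIG against LER (edgeR, adjusted p = 1.00 and 0.97). Both lay so near 0 that leaving out single libraries turned their sign, the former to -0.055 without NER replicate 3.

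Of the genes of catecholamine synthesis, uptake and breakdown beside Maoa, 13 of 19 could be tested and 0 were called in each comparison. Their median log2 fold change was 0.0015 for LER against NER and 0.07 in LER+LIG against LER, where all tested genes had -0.02 and 0.07. Th, tyrosine hydroxylase, the rate-limiting enzyme of synthesis, had 0 reads in all 9 libraries, and Ddc, Dbh, Pnmt and Slc18a1 reached at most 1.49 CPM. Slc6a2, the noradrenaline transporter, was nevertheless at 96.8, 101.3 and 7.96 CPM in NER, 92.7, 79.98 and 88.7 CPM in LER and 59.4, 7.96 and 11.5 CPM in LER+LIG. It was low in the same 3 libraries as Adra2a. Every LER+LIG library was below every LER library, in a comparison where 20.4% of tested genes had groups apart. The Slc6a2 log2 fold change was -1.73 ± 0.93 (SE) for LER+LIG against LER (edgeR, adjusted p = 0.47). Of the other defining markers of sympathetic nerve, Chgb and Npy had 0 reads and Chga at most 0.07 CPM. In all, 7 of the 11 listed nerve markers, Slc6a2 among them, had reads. Their sum was 124.8, 145.6 and 40.4 CPM in NER, 119.9, 116.7 and 120.5 CPM in LER and 146.3, 23.5 and 48.3 CPM in LER+LIG.

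Maob, the second monoamine oxidase, was at 107.9, 104.6 and 11.9 CPM in NER, 73.5, 70.3 and 93.3 CPM in LER and 97.7, 73.3 and 27.8 CPM in LER+LIG, low in NER replicate 3 and LER+LIG replicate 3. Slc18a2, the vesicular monoamine transporter, was at 10.8, 8.23 and 12.1 CPM in LER+LIG against 6.79, 6.56 and 5.90 CPM in LER. For Slc18a2 those groups did not overlap, as in 20.4% of tested genes, and it was not called (log2 fold change 0.69 ± 0.31 (SE); edgeR, adjusted p = 0.40). Sult1a1, a phenol sulfotransferase, was at 8.18 CPM in NER replicate 3 and 16.8 CPM in LER+LIG replicate 3 and at 75.7 to 139.8 CPM elsewhere. Aldh2, Aldh3a2, Akr1a1 and Akr1b1, which handle the aldehydes that monoamine oxidases leave, ranged from 99.6 to 1016 CPM, and Rnls from 6.63 to 14.9 CPM. Among the remaining carriers, Slc22a3 ranged from 0.50 to 8.35 CPM, Slc29a4 from 1.15 to 12.7 CPM and Slc22a2 up to 1.16 CPM.

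Crem, the cAMP-responsive modulator, some of whose promoters carry the element printed above, spread widely inside NER and LER+LIG. Its libraries were at 107.5, 54.1 and 24.4 CPM in NER, 59.2, 74.5 and 52.5 CPM in LER and 110.7, 31.6 and 41.1 CPM in LER+LIG. The group means were nearly equal at 62.0 ± 42.1, 62.1 ± 11.3 and 61.1 ± 43.2 CPM (SD, n = 3 each), while single libraries of NER and LER+LIG lay on both sides of all LER libraries. The log2 fold change was 0.002 ± 0.57 (SE) for LER against NER and -0.023 ± 0.57 in LER+LIG against LER (edgeR, adjusted p = 1.00 and 0.99). It was set by single libraries: 0.66 without NER replicate 1 and -0.38 without NER replicate 3 for the former, and -0.81 without LER+LIG replicate 1 for the latter. The lowest 3 levels belonged to NER replicate 3 and LER+LIG replicates 2 and 3, as for Adra2a.

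Pde4d, a cAMP-specific phosphodiesterase, had the one comparison among the members in which the groups did not overlap. It stood at 35.4, 20.5 and 11.6 CPM in NER, 22.6, 22.4 and 20.3 CPM in LER and 8.14, 14.7 and 17.2 CPM in LER+LIG. Every LER+LIG library was below every LER library, as in 1 of 7 tested members, beside 20.4% of all tested genes whose groups did not overlap in that comparison. Its log2 fold change for LER+LIG against LER was -0.70 ± 0.42 (SE), not called (edgeR, adjusted p = 0.50), and -0.93 to -0.48 with 1 library left out. In the authors' deposited table the same comparison had a log2 fold change of -0.73 with an unadjusted p of 0.046 and no call, where 14.9% of rows had p under 0.05. For LER against NER it was -0.048 ± 0.42 (SE), and 0.44 without NER replicate 1. NER replicate 3, which had no LIG, was at 11.6 CPM, below LER+LIG replicates 2 and 3.

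The lowest Pde4d level was in LER+LIG replicate 1, the library in which long genes were low. The gene model of Pde4d is 6412 bases long, inside the longest class, so that shift of -0.38 stands beside its value, and its part in the difference was not tested. With NER replicate 3 and LER+LIG replicates 2 and 3 left out, Pde4d was called lower in LER+LIG, at a log2 fold change of -1.45 (edgeR, adjusted p = 0.015), and Adra1a at -1.23 (adjusted p = 0.046). That fit compares the single library LER+LIG replicate 1 with LER, assumes that it varies like the other groups, and called 3922 genes in all.

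Pde4b, the PDE4 enzyme of leukocytes and inflammatory responses, did not follow Pde4d. It was at 19.5, 9.82 and 14.5 CPM in NER, 9.16, 14.4 and 8.89 CPM in LER and 5.90, 17.7 and 19.5 CPM in LER+LIG. LER+LIG held both the lowest library and a library level with the highest, NER replicate 1. The lowest, LER+LIG replicate 1, is the library with the shift of -0.38 in long genes. The Pde4b model of 7414 bases is in the longest class, as is the Crem model of 11839 bases. The part of the shift in the Pde4b value was not tested. The log2 fold change was -0.43 ± 0.47 (SE) for LER against NER and 0.41 ± 0.47 in LER+LIG against LER (edgeR, adjusted p = 1.00 and 0.74), and the latter was -0.91 without the 3 libraries that stood apart. The summed macrophage markers (8 of 8 detected) were at 560.8, 856.9 and 855.7 CPM in LER+LIG replicates 1 to 3, and at 353.5 to 536.0 CPM in LER. The summed neutrophil markers (7 of 7) were at 232.7, 122.6 and 320.0 CPM in LER+LIG replicates 1 to 3, and at 33.7 to 90.6 CPM in LER. In NER replicates 1 to 3 the macrophage sums were 340.1, 340.6 and 1122 CPM and the neutrophil sums 41.0, 45.5 and 115.5 CPM. The part of these cells in the Pde4b values was not tested.

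**Figure D2:**
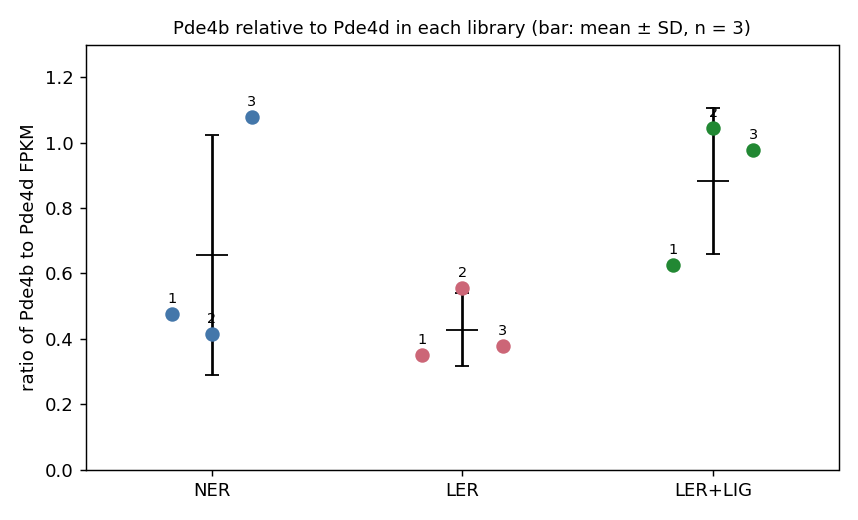
Ratio of Pde4b to Pde4d FPKM in each library, on a linear axis from 0. Points are libraries numbered by replicate and bars show the group mean ± SD; LER+LIG replicates 2 and 3 and NER replicate 3 lie at 0.98 to 1.08 and the other 6 at 0.35 to 0.63.

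Within a library the ratio of Pde4b to Pde4d does not depend on scaling. By FPKM it was 0.48, 0.42 and 1.08 in NER, 0.35, 0.56 and 0.38 in LER and 0.63, 1.05 and 0.98 in LER+LIG. All 3 LER+LIG libraries were above all 3 LER libraries, at 0.88 ± 0.22 against 0.43 ± 0.11 (SD, n = 3 each). Pde4d, the denominator, by itself had these groups apart, as had 20.4% of tested genes, so the ratio is not a separate result. NER replicate 3, with no LIG, had the highest ratio of all. The ratio was chosen after its values were seen and was not tested.

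**Figure D3:**
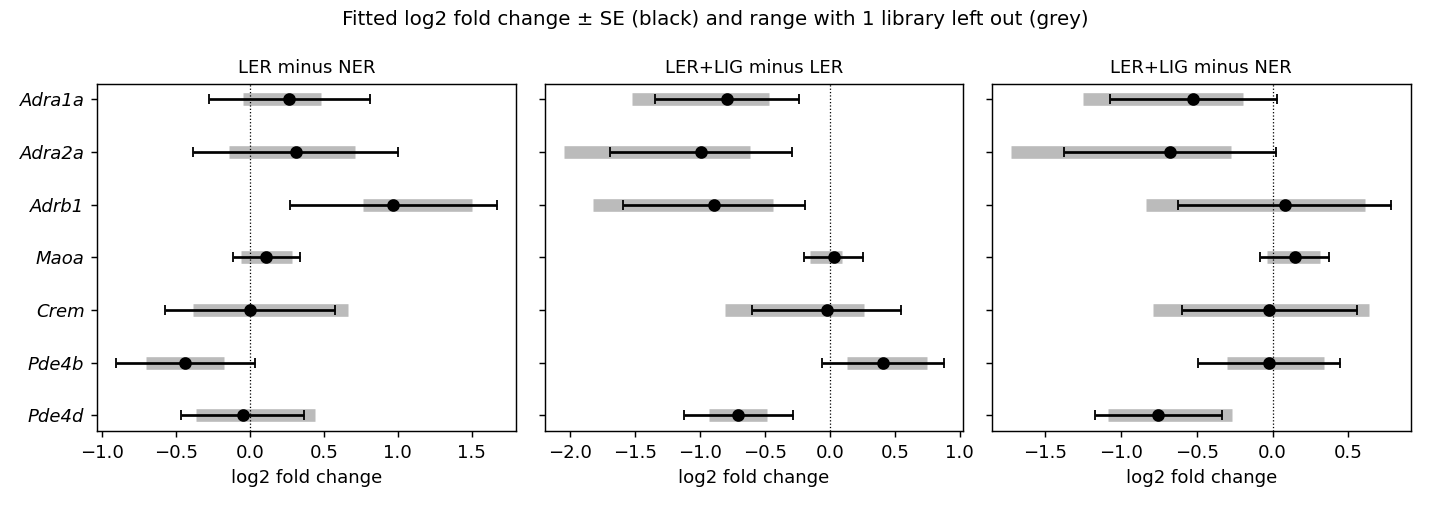
Fitted log2 fold changes of the 7 tested members in 3 comparisons. Points and black bars are the edgeR estimate ± SE over all 9 libraries and grey bars the range with 1 library left out; 0 of the 7 members was called in each comparison.

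For LER+LIG against NER the members' log2 fold changes lay between -0.75 ± 0.42 (SE) for Pde4d and 0.15 ± 0.23 for Maoa. Adra2a had -0.68 ± 0.70, Adra1a -0.52 ± 0.55, Adrb1 0.082 ± 0.70, Crem -0.021 ± 0.57 and Pde4b -0.022 ± 0.47. The smallest adjusted p among them was 0.87 (edgeR), for Pde4d.

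The machinery between receptor and target was measured as lists of genes, each given with its count and median, and edgeR called 0 genes of every list in every comparison, and 0 to 2 genes of each had an unadjusted p under 0.05. DESeq2 calls were not counted by list. Of 20 tested genes for G proteins, receptor kinases and arrestins, 9 were higher and 11 lower for LER+LIG against LER, with a median log2 fold change of -0.08. Gna11, a Gq-class subunit, was at 16.9, 37.6 and 31.5 CPM in LER+LIG and 62.6, 53.7 and 39.8 CPM in LER. Gnai1, an inhibitory subunit, was at 8.14, 16.1 and 15.1 CPM against 27.8, 21.5 and 19.5 CPM. For LER against NER Gnai1 had 0.40 and Grk5, a receptor kinase, -0.42 (log2). Gna11 and Gnai1 had LER+LIG and LER apart, as had 20.4% of tested genes. Neither gene was called there (log2 fold change -0.86 ± 0.31 and -0.80 ± 0.31 (SE); edgeR, adjusted p = 0.36 and 0.37).

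Adenylyl cyclases, which make cAMP, were lower in 6 of 9 tested genes in both LER against NER and LER+LIG against LER, with medians of -0.14 and -0.02. Adcy2 was at 12.0, 12.8 and 16.1 CPM in LER+LIG against 7.80, 5.89 and 8.89 CPM in LER, and Adcy6 at 89.9, 135.4 and 96.1 CPM against 178.9, 163.5 and 149.4 CPM. Those groups were apart in opposite directions, where 20.4% of tested genes had groups apart. The log2 fold changes were 0.85 ± 0.32 and -0.61 ± 0.23 (SE; edgeR, adjusted p = 0.36 each, not called). For LER against NER the smallest unadjusted p values belonged to Adcy3 at -0.41 and Adcy4 at 0.35 (log2).

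Subunits and anchors of protein kinase A and the Epac genes were lower in 11 of 15 for LER+LIG against LER by a median of -0.34, and in 5 of 15 for LER against NER with 0.09. Prkaca, the catalytic subunit alpha, was at 63.1, 53.2 and 42.9 CPM in LER+LIG and 78.4, 70.3 and 74.9 CPM in LER, and Pkia, a peptide inhibitor of the kinase, at 11.7, 10.1 and 29.8 CPM against 24.6, 36.6 and 40.7 CPM. The log2 fold changes were -0.49 ± 0.21 and -0.98 ± 0.42 (SE; edgeR, adjusted p = 0.39 each, not called). Akap5 and Prkar1b, named for LER against NER, had 0.86 and -0.35.

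Other cAMP phosphodiesterases were split, 7 higher and 7 lower for LER+LIG against LER. Pde4c, the family member that is scarce in leukocytes, was at 1.86, 4.88 and 21.3 CPM in NER, 1.76, 0.67 and 1.42 CPM in LER and 2.08, 6.12 and 19.9 CPM in LER+LIG. LER was below both other groups in every library. Of all tested genes, 7.14% had groups apart in LER against NER and 20.4% in LER+LIG against LER. For Pde4c the log2 fold changes were -2.85 ± 1.04 for LER against NER and 2.86 ± 1.04 (SE) in LER+LIG against LER, sharing the LER libraries (edgeR, adjusted p = 1.00 and 0.36, not called). Its means rest on the libraries at 21.3 and 19.9 CPM, both among those that stood apart. Pde8b was at 2.24, 3.47 and 0.93 CPM in LER+LIG against 4.75, 7.90 and 3.77 CPM in LER, and Pde11a at 0.25 to 9.26 CPM in NER against 0.87 to 0.995 CPM in LER, neither called.

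**Figure D4:**
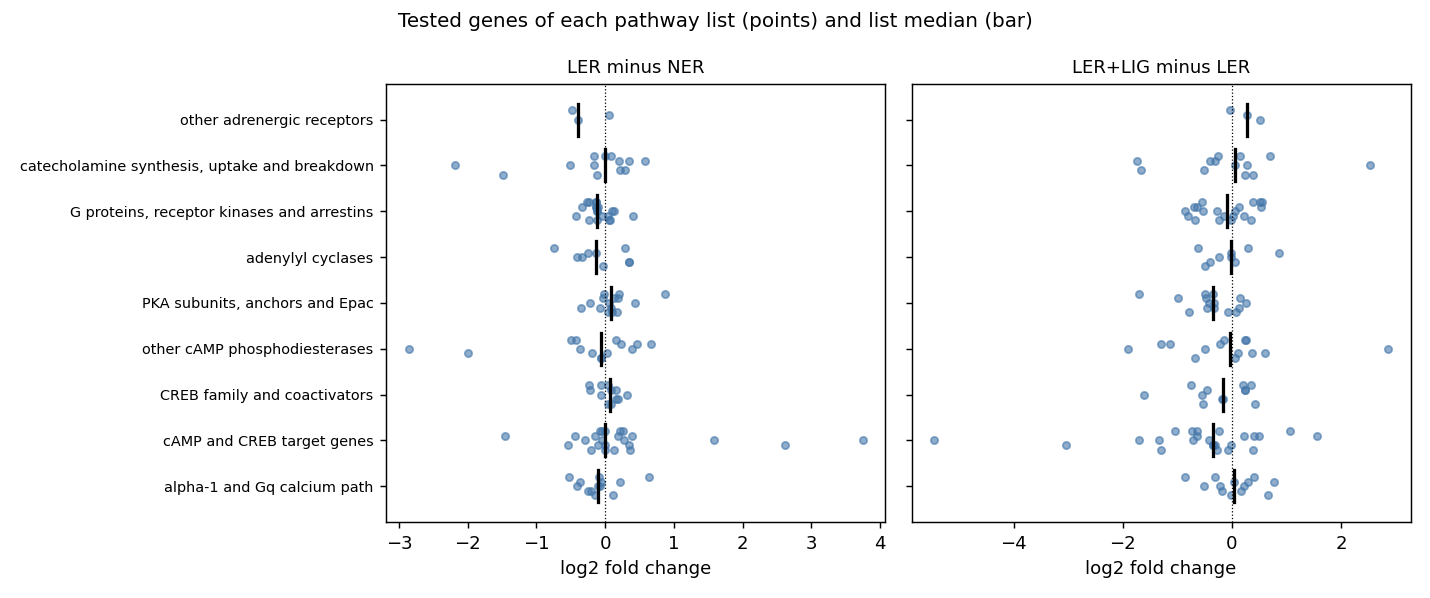
Log2 fold change of each tested gene (points) and the median (bar) of 9 lists around the members, for LER against NER on the left and LER+LIG against LER on the right. Medians lie between -0.39 and 0.28, and 0 genes were called in either comparison by edgeR.

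Of 24 tested cAMP and CREB target genes, a list that includes Crem, Pde4b and Pde4d, 13 were higher and 11 lower for LER against NER, with a median log2 fold change of 0.0031, which was 0.41 without NER replicate 1. For LER+LIG against LER 18 of 24 were lower, with a median of -0.34, where 45.1% of all tested genes were lower and their median was 0.07. Gem, a small GTPase of the RGK family, was the exception with the smallest p, at 95.3, 163.5 and 59.1 CPM in LER+LIG against 45.9, 56.1 and 50.3 CPM in LER (log2 fold change 1.06 ± 0.37 (SE); edgeR, adjusted p = 0.36). Pck1, a gluconeogenic enzyme gene also of adipocytes, was at 75.8 CPM in LER replicate 1, the library with high adipocyte markers, and at most 4.21 CPM elsewhere. Star, the cholesterol carrier of steroid synthesis, was at 5.43 CPM in that library and at most 0.85 CPM in the other 8. Among CREB family genes and coactivators 5 of 12 were higher for LER+LIG against LER, with Creb5 at 2.33, 9.32 and 6.03 CPM against 11.6, 19.7 and 22.9 CPM and Atf1 at 154.2, 116.3 and 115.1 CPM against 95.1, 103.3 and 90.1 CPM (edgeR, adjusted p = 0.36 and 0.47). Creb3 and Crtc2, named for LER against NER, had log2 fold changes of -0.22 and 0.16. In the Gq and calcium path of alpha-1 receptors 7 of 13 genes were higher for LER+LIG against LER, by a median of 0.04, with Prkcd at 0.65 and Camk2g at -0.52 (log2), and Itpr2 and Itpr3 had 0.64 and -0.36 for LER against NER.

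The genes most like a member over the 9 libraries were found by the mean absolute difference of log2 CPM after centring each gene on its own mean, among 12792 genes with a mean of at least 2 CPM. For Adra2a they were Kank4, Snai1 and AABR07063279.1, at 0.20 to 0.21 against a median of 0.97 over all genes. Nearest to Crem were LOC102556347, Hspe1 and Cnn3 at 0.17 to 0.20, against 0.64. Adra1a had Hjurp, Nova1 and Egfr at 0.22, against 0.69, and Adrb1 had Pacsin3, Mdk and Atp5md at 0.25 to 0.27, against 0.82. These values describe likeness over 9 libraries and carry no test.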

How the data were processed

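Poly-A selected RNA of 9 libraries was analysed from the deposited table, which holds read counts per gene and, per the file headers, FPKM by the authors. Per gene, the authors' FPKM was its count over length over library total (largest relative difference 9.6e-15 over 17844 genes) and gave the gene lengths. The authors' deposited comparison table holds log2 fold changes and p-values; for the test behind it, the aligner, the build and the strand setting, sources used here give nothing, so reads of antisense neighbours cannot be told apart. Counts were fitted in R 4.3.3 with edgeR 4.0.16 (filterByExpr, TMM factors of 0.867 to 1.05, robust glmQLFit over 9 libraries, glmQLFTest, Benjamini-Hochberg over 14229 genes, called at adjusted p under 0.05). The 8 rows without a symbol held at most 0.0031% of counts and were left out. log2 CPM used a prior count of 2. SE is the fold change over the root of F. DESeq2 1.42.0, other scalings, no filter, the groups compared alone, a replicate block and leaving out libraries were alternatives.

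Members and lists were chosen with earlier results of these data known. Of 228 list entries, 226 matched by symbol. Named genes were the members, the receptor and catecholamine genes (some are not reported here), called list genes or else the pair with the smallest p in LER against NER and in LER+LIG against LER, and the 3 nearest profiles of the 4 most variable members. The procedure was tested on simulated counts. Every pair of libraries differed beyond counting noise (lowest chi-square over its degrees of freedom 17.9). Counts at this depth carry counting error as well as the spread between libraries, most for Adra1b and Adrb1.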

Additional observations from a re-analysis of the deposited data

How the results depend on the processing

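The members' calls, 0 in each comparison, did not change with upper-quartile scaling, no filter, DESeq2 size factors, its Wald test, the compared groups alone, the replicate block or any 1 library left out. Over all genes DESeq2 called 2, 299 and 15 genes for LER against NER, LER+LIG against LER and LER+LIG against NER, where edgeR called 0 in each. For LER+LIG against LER upper-quartile scaling and no filter called 1 gene each, and leaving out 1 library gave 0 to 1. Without the 3 libraries that stood apart, a setting added after seeing the data, edgeR called 3922 genes and 2 members for LER+LIG against LER and 2730 genes and 1 member (Pde4d, log2 fold change -1.81, adjusted p = 0.011) for LER+LIG against NER, each from 1 LER+LIG library.

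Some directions turned. Maoa had -0.026 with upper-quartile scaling and -0.0044 without a filter for LER+LIG against LER, and Crem -0.0032 in the fit of NER and LER alone. With the replicate block Adrb1 had -0.13 and Crem 0.018 for LER+LIG against NER. Of the 9 same-numbered pairs of libraries 4 had deviations correlated above 0.1, with a range of -0.19 to 0.51, so the numbers were not taken to pair the libraries. Without the 3 libraries that stood apart LER against NER had -0.045 for Adra1a, -0.14 for Adra2a, -0.055 for Maoa and -0.38 for Crem. LER+LIG against LER then had 0.043 for Adrb1, 0.80 for Crem and -0.91 for Pde4b, and LER+LIG against NER had 0.42 for Crem.

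With 1 library left out, log2 fold changes for LER against NER ranged from -0.044 to 0.48 for Adra1a, -0.14 to 0.71 for Adra2a, -0.055 to 0.28 for Maoa, -0.38 to 0.66 for Crem and -0.36 to 0.44 for Pde4d. For LER+LIG against LER they ranged from -0.15 to 0.094 for Maoa and -0.81 to 0.26 for Crem. For LER+LIG against NER they ranged from -0.83 to 0.61 for Adrb1, -0.039 to 0.31 for Maoa, -0.79 to 0.64 for Crem and -0.30 to 0.34 for Pde4b. Few reads limit Adra1b and Adrb1. In these ranges the cause of each turn was not tested. Of the list medians under all alternatives 23 moved and 409 did not. For LER against NER the median of G protein genes was -0.0055 without NER replicate 3. In LER+LIG against LER that of catecholamine genes was -0.34 without LER+LIG replicate 1 and that of protein kinase A genes -0.54 without LER+LIG replicate 2. Without the 3 libraries that stood apart the same comparison had medians of -0.96 for adenylyl cyclases, -0.57 for protein kinase A genes, -1.35 for other phosphodiesterases, -0.80 for the CREB family and -0.69 for the Gq path.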
